A study of Mus musculus with 3 samples.

Results

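The genes described here are 10 mouse genes that carry glucose into the cell, break it down to pyruvate and lactate, and move lactate across the membrane, together with the hypoxia-inducible factor gene Hif1a. They were taken by name from the 50600 genes of the deposited tables, by gene identifier matched to symbol, and all 10 were found. The members are the glucose transporter genes Slc2a1 and Slc2a3, the monocarboxylate transporter genes Slc16a1 and Slc16a3, the enzyme genes Hk1, Hk2, Pfkp, Pkm and Ldha, and Hif1a. RNA was measured in 3 libraries of T-helper 1 (Th1) cells, the helper T cells known for secreting interferon-gamma, prepared as primary cells from the C57BL/6NJ strain. The labels give no treatment and no age, name a CD4 T cell differentiation protocol, and tie all 3 biosamples to the same donor entry. The file headers also name a time of 2 hours, and the RNA is labelled total although the linked library protocol is named for poly(A)+ RNA. The libraries, numbered as biological replicates 1, 2 and 3, form a single group, so no treated or control cells are set against them here. Whether the cultures came from separate animals is not stated, so the spread between libraries may be partly technical.

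Glycolysis splits glucose into pyruvate. Hexokinase traps the sugar, phosphofructokinase commits it to the pathway, pyruvate kinase makes the pyruvate, and lactate dehydrogenase turns pyruvate into lactate, which leaves the cell through proton-coupled monocarboxylate transporters. T cells are known to raise glucose uptake and lactate output after antigen receptor signalling, and HIF1, whose regulated subunit is the product of Hif1a, switches on many of these genes when oxygen is low.

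The libraries held 4442901, 3123869 and 2950658 counted read pairs in replicates 1, 2 and 3, and a count of 3, the usual limit for a gene with no counts, stands for 0.675, 0.96 and 1.02 CPM (counts scaled to the library total). Levels are given as TPM, counts divided by exon length and scaled to the same total in every library, so that genes can be compared. All 9 T cell markers reached 1 TPM in every library, with summed levels of 4008, 1734 and 2268 TPM. Of the Th1 markers 4 of 6 did, with Tbx21, the Th1 lineage factor, at 19, 7 and 11 counts and Ifng, the interferon-gamma gene, at 1, 2 and 0. Il12rb2, among these 4, has 40.0% of its exon bases opposite Serbp1. B cell markers summed to 27.0 to 48.7 TPM, all from Cd79a, with no count for the other 5 of 6. Macrophage and neutrophil markers summed to 136.8 to 181.1 TPM, nearly all from Csf1r, whose exons lie opposite Hmgxb3, and Lyz2, S100a8 and S100a9 had no count. NK and CD8 markers summed to 11.5 to 24.5 TPM, nearly all from Prf1 (78, 27 and 38 counts) and Cd8b1 (34, 16 and 10 counts), with Ncr1 and Klrb1c at no count. Red cell markers summed to 2.09 to 6.62 TPM, all from Alas2, with all 4 globin genes at no count. The part of such cells in the levels below was not tested.

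Strand matters for every value that follows. The counting used strand setting 1, which assigns a read pair to a gene by the strand of its first read, and genes with an exon opposite an exon of the other strand held 55.1%, 69.1% and 67.3% of counts in replicates 1, 2 and 3. mt-Nd6, the only mitochondrial mRNA gene on its strand, had 2.11, 2.71 and 6.31 times as many counts per base as the 12 others together. The reads were not used here, so whether the setting matches the library was not tested. All levels given here are levels under that setting, and may not be levels of each gene's own mRNA.

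All members except Hk2 reached 1 TPM in every library, which is 9 of 10, against 38.7% of the 21764 protein-coding genes. The median over the 10 members was 36.5, 18.4 and 22.2 TPM in replicates 1, 2 and 3, or 25.7 ± 9.55 TPM (SD, n = 3), beside a median of 0.297 TPM over all protein-coding genes. Ldha was the highest and Hk2 the lowest, 153.7-fold apart in mean TPM. Together the members held 6604, 2721 and 3331 counts. In bulk RNA such as this, fewer cells that express a gene and less RNA per cell cannot be told apart.

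**Figure D1:**
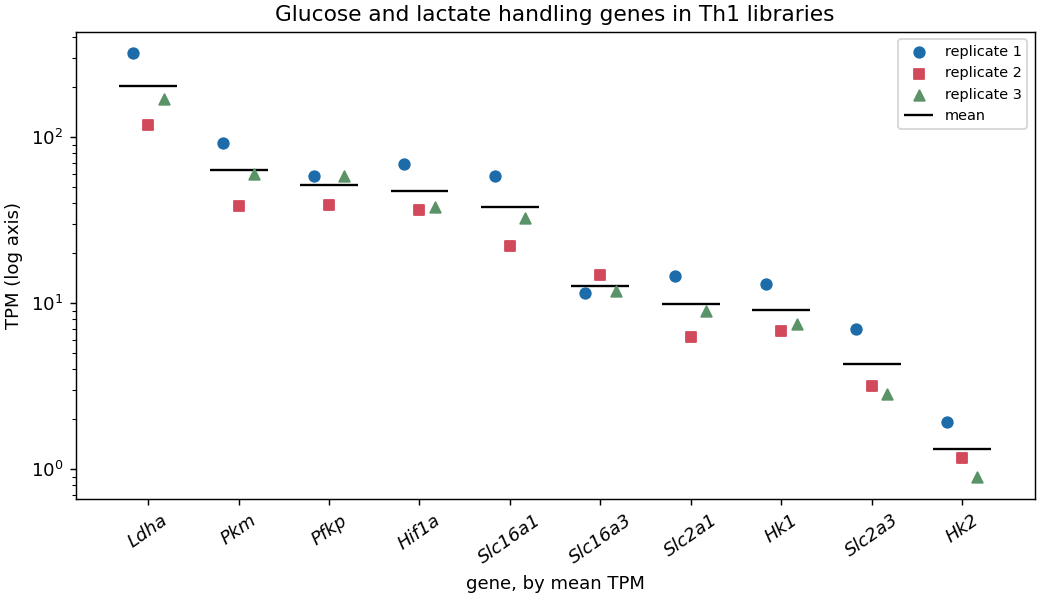
Level of each member in TPM (log axis) in replicates 1, 2 and 3, with the mean as a line, ordered by mean. Ldha lies above all other members in every library and Hk2 below all, and replicate 1 is the highest library for every member but Slc16a3.

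The order of the members was Ldha, Pkm, Pfkp, Hif1a, Slc16a1, Slc16a3, Slc2a1, Hk1, Slc2a3 and Hk2. Ldha above Pkm, Slc16a1 above Slc16a3 and Slc2a3 above Hk2 were the neighbours whose ranges over the 3 libraries did not overlap. Hif1a lay above Slc16a1, and Hk1 above Slc2a3, in 3 of 3 libraries with overlapping ranges. The remaining neighbours kept their order in 2 of 3 libraries and do not differ beyond their spread.

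Of the glucose transporters, Slc2a1 (ENSMUSG00000028645.11, mm10 chr4:119108711-119137983, plus strand) encodes the widely expressed basal transporter of the family. It had 112, 41 and 53 counts, or 14.6, 6.23 and 8.90 TPM, in replicates 1, 2 and 3, a mean of 9.91 ± 4.27 TPM (SD, n = 3). Slc2a3 (ENSMUSG00000003153.10, chr6:122727809-122801640, minus strand), the gene of a high-affinity transporter best known from neurons, had 110, 43 and 35 counts, or 6.94, 3.16 and 2.85 TPM (4.32 ± 2.28). Replicate 1 was highest for both, and their ranges overlap, since the lowest library of Slc2a1 lies under the highest of Slc2a3. Within each library Slc2a1 was the higher, by 2.10-, 1.97- and 3.13-fold per exon base, with a log2 ratio of 1.23 ± 0.36 (SD, n = 3). Summed over libraries, 206 against 188 counts gave 2.26-fold (exact Clopper-Pearson 95% interval 1.85 to 2.77). This interval, like those of the summed ratios below, covers counting error only and not the spread between libraries. The ratio of Slc2a1 to Slc2a3 leans on the long exon length of Slc2a3, 7245 bases against 3506. With the median length of annotated coding transcripts, a choice made after seeing the data, it was 1.38-fold, and on raw counts 1.14-fold.

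Of the wider transporter family 10 genes were listed, and 3 of them reached 1 TPM in all libraries, against 38.7% of protein-coding genes. Slc2a12, of a less studied transporter, was highest at 25.3 ± 8.89 TPM (SD, n = 3), above both members, and an exon of it lies opposite Tbpl1. Slc2a10, Slc2a2, Slc2a4 and Slc2a5, the last 3 being the liver, insulin-responsive and fructose transporters, had no count in any library, and Slc2a8 was the lowest of the rest at 0.164 ± 0.0207 TPM. The list median was 0.199 ± 0.0458 TPM, beside 0.297 for all protein-coding genes.

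Hk1 (ENSMUSG00000037012.18, chr10:62268855-62379908, minus strand), the hexokinase found in most tissues, had 244, 108 and 108 counts, or 13.1, 6.75 and 7.46 TPM, a mean of 9.09 ± 3.46 TPM (SD, n = 3). Hk2 (ENSMUSG00000000628.10, chr6:82725025-82774454, minus strand), the inducible hexokinase of muscle and fat, had 25, 13 and 9 counts, or 1.91, 1.16 and 0.888 TPM (1.32 ± 0.531). Every library of Hk1 lay above every library of Hk2. The exact Poisson 95% intervals of Hk2, which cover counting error only, were 1.24 to 2.83, 0.618 to 1.99 and 0.406 to 1.69 TPM and overlap one another. Within libraries Hk1 exceeded Hk2 6.83-, 5.81- and 8.40-fold per exon base, a log2 ratio of 2.79 ± 0.27. The summed 460 and 47 counts gave 6.85-fold (5.06 to 9.45), and median transcript lengths 11.0-fold. The related genes Hk3 and Hkdc1 had no count.

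Pfkp (ENSMUSG00000021196.13, chr13:6579768-6648777, minus strand), the platelet type subunit of phosphofructokinase, had 1202, 684 and 929 counts, or 58.5, 38.8 and 58.2 TPM, a mean of 51.8 ± 11.3 TPM (SD, n = 3). Replicates 1 and 3 were level and replicate 2 was low. The liver type gene Pfkl stood at 6.01 ± 2.78 TPM and the muscle type gene Pfkm at 7.34 ± 0.831, so every library of Pfkp lay above every library of both. Per exon base Pfkp exceeded Pfkl 6.37-, 9.72- and 12.0-fold and Pfkm 8.41-, 4.68- and 8.60-fold in replicates 1, 2 and 3. The summed ratios were 8.37 (7.33 to 9.59) and 7.09 (5.92 to 8.55). With median transcript lengths the folds over Pfkl and Pfkm were 13.9 and 18.3.

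Pkm (ENSMUSG00000032294.17, chr9:59656368-59679375, plus strand), the pyruvate kinase gene of most tissues, whose alternative isoforms gene counts cannot tell apart, had 1010, 361 and 509 counts, or 92.3, 38.5 and 59.9 TPM, a mean of 63.6 ± 27.1 TPM (SD, n = 3). Replicate 1 was highest and replicate 2 lowest. Gm49759, annotated on the same strand, shares 767 exon bases with Pkm, 15.3% of its exons, and a read pair in shared bases may be counted for neither gene. Pklr, the pyruvate kinase of liver and red cells, had 0, 2 and 2 counts, and 22.0% of its exon bases lie opposite the ion channel gene Hcn3. The summed 1880 and 4 counts gave a ratio of 304 (119 to 1117) per exon base, or 598 with median transcript lengths. Within replicates 2 and 3 it was 117 and 165. The summed log2 ratio of 8.25 was 7.14 without replicate 1, 8.94 without replicate 2 and 8.79 without replicate 3, so 4 counts of Pklr set its size poorly.

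Ldha (ENSMUSG00000063229.15, chr7:46841475-46855627, plus strand), the lactate dehydrogenase subunit that favours lactate formation, had 2316, 739 and 957 counts, or 319.7, 119.0 and 170.3 TPM, a mean of 203 ± 104.3 TPM (SD, n = 3). No gene of the other strand overlaps it. It lay at percentile 98.5 of the protein-coding genes by mean TPM and held 27.2% to 35.1% of the members' counts. Ldhb, the heart type subunit, had 30, 20 and 25 counts, or 8.30 ± 1.35 TPM. Ldha exceeded it 36.6-, 17.5- and 18.2-fold per exon base, a log2 ratio of 4.50 ± 0.60. The summed ratio was 25.4 (20.2 to 32.3), an interval of counting error that holds none of the 3 library ratios. Median transcript lengths gave 39.2-fold.

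Of 25 glycolysis enzyme genes listed, 17 were at 1 TPM or more in all libraries, against 38.7% of protein-coding genes. Among the 17 were 13 of the 20 that are not members. The median level of the 25 was 7.56 ± 1.39 TPM (SD, n = 3). After Ldha the highest were Aldoa, an aldolase gene, at 77.1 ± 35.4 TPM and Gapdh, the dehydrogenase in the middle of the pathway, at 74.9 ± 38.8. Aldoa and Gapdh each have an exon opposite another gene, Fam57b and Iffo1.

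Of the lactate transporters, Slc16a1 (ENSMUSG00000032902.1, chr3:104638668-104658462, plus strand), the broadly expressed monocarboxylate transporter, had 567, 183 and 245 counts, or 58.5, 22.0 and 32.6 TPM, a mean of 37.7 ± 18.8 TPM (SD, n = 3). Slc16a3 (ENSMUSG00000025161.16, chr11:120948480-120960868, plus strand), the transporter known for lactate export from glycolytic cells, had 134, 148 and 106 counts, or 11.5, 14.8 and 11.7 TPM (12.7 ± 1.86). Slc16a1 was highest in replicate 1, while Slc16a3 was highest in replicate 2. The ratio of Slc16a1 to Slc16a3 per exon base was 5.08, 1.49 and 2.78, a log2 ratio of 1.46 ± 0.89, the widest spread of the pairs that could be tested. The summed 995 and 388 counts gave 3.08-fold (2.74 to 3.47). With median transcript lengths the ratio was 2.28, 0.667 and 1.25, so in replicate 2 the order turned. The nearest other-strand gene to Slc16a3 is the casein kinase gene Csnk1d, 881 bases after its 3′ end, with 687, 283 and 354 counts.

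Of 8 genes of monocarboxylate transport, 6 were at 1 TPM or more throughout, against 38.7% of protein-coding genes. The median gene of the 8 stood at 10.8 ± 1.29 TPM (SD, n = 3). The ancillary proteins that bring these transporters to the surface were the highest, Emb at 83.2 ± 37.6 TPM, with 14.8% of its exon bases opposite Gm17509, and Bsg at 74.5 ± 29.3. Slc16a7 was lowest, with 0, 1 and 0 counts.

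Hif1a (ENSMUSG00000021109.13, chr12:73901375-73947530, plus strand) had 884, 401 and 380 counts, or 68.5, 36.3 and 38.0 TPM, a mean of 47.6 ± 18.1 TPM (SD, n = 3). Epas1, which encodes the related HIF2 alpha subunit, had 43, 27 and 40 counts, or 3.62 ± 0.866 TPM. Hif1a exceeded it 18.5-, 13.4- and 8.55-fold per exon base, a log2 ratio of 3.68 ± 0.56, with a summed ratio of 13.6 (11.2 to 16.7). Of 9 genes of the HIF pathway 7 were at 1 TPM or more in all libraries, against 38.7% of protein-coding genes. The median of the 9 was 5.80 ± 2.65 TPM. The oxygen-sensing hydroxylase genes Egln2 and Hif1an followed Hif1a at 13.4 ± 4.01 and 9.51 ± 3.33 TPM, and Hif3a was lowest with 1, 0 and 1 counts.

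The 8 ratios above were formed within libraries. For the 7 pairs in which both genes had counts in every library, the first gene was the higher in 3 of 3 libraries. The exact two-sided sign-flip test gave p = 0.25 for each, also after Benjamini-Hochberg adjustment over the 7, which is the smallest p that 3 libraries allow, so no ratio could pass 0.05. Only Slc16a1 with Slc16a3 and Ldha with Ldhb were pairs in which neither gene had an exon opposite another gene.

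**Figure D2:**
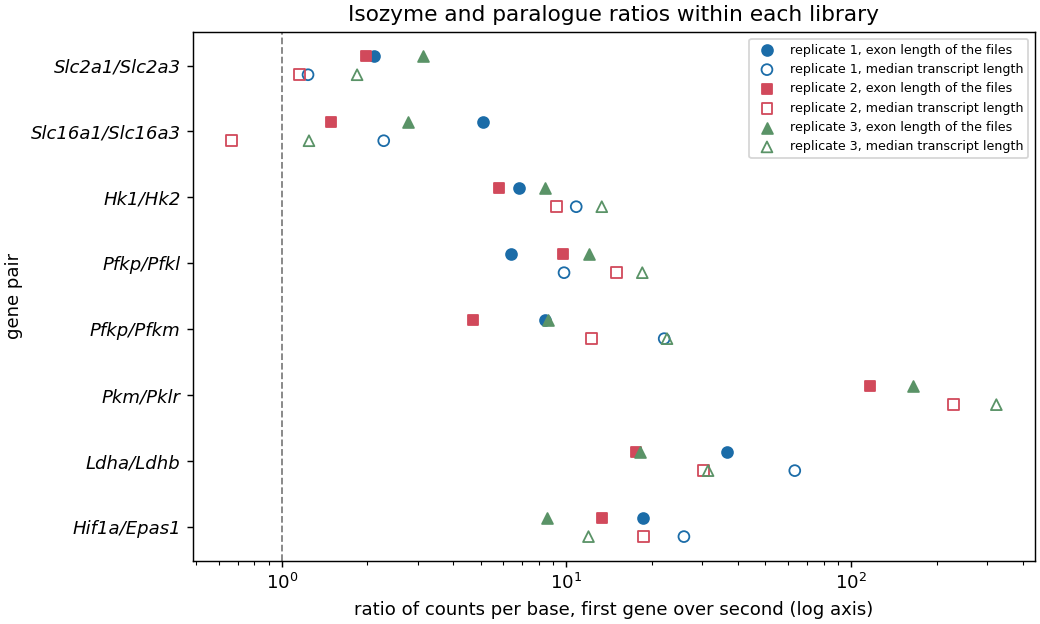
Ratio of counts per base (log axis) for 8 gene pairs in replicates 1, 2 and 3, with the exon length of the files (filled) and the median coding transcript length (open). Only Slc16a1 over Slc16a3 crosses 1, at 0.667 in replicate 2 with transcript lengths, and Pkm over Pklr has no value in replicate 1, where Pklr had no count.

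Among 13 genes that control glycolysis, 9 were at 1 TPM or more throughout, against 38.7% of protein-coding genes. The median gene of the 13 had 4.39 ± 1.36 TPM (SD, n = 3). The pyruvate dehydrogenase subunit genes Pdhb and Pdha1 stood highest at 36.7 ± 18.2 and 29.7 ± 11.1 TPM, followed by Txnip, a brake on glucose uptake, at 20.5 ± 12.4. Exons of Pdha1 and Txnip lie opposite Map3k15 and Gm15441. Pdk4, a kinase that blocks pyruvate dehydrogenase, had no count. All 7 pentose phosphate genes were at that level, with a median of 10.9 ± 5.38 TPM, led by Rpe at 43.8 ± 1.79, which lies opposite Kansl1l, Tkt at 18.2 ± 7.90 and Taldo1 at 16.6 ± 6.93. Pgls, the lactonase of that pathway, was lowest at 3.62 ± 1.43 TPM. Of 12 known HIF1 targets outside glycolysis 10 did, with a median of 7.01 ± 3.25 TPM. These were led by the histone demethylase gene Kdm3a at 20.4 ± 7.65 TPM, the collagen hydroxylase gene P4ha1 at 15.2 ± 5.77 and the mitophagy gene Bnip3l at 12.0 ± 6.50, and Adm was lowest with 2, 0 and 0 counts.

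**Figure D3:**
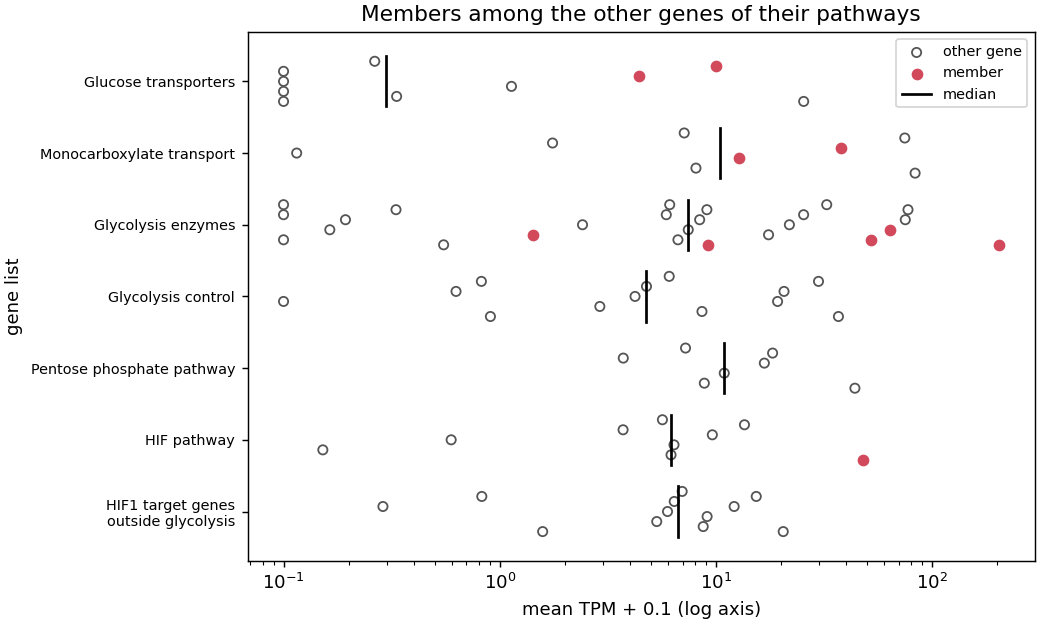
Mean TPM over 3 libraries plus 0.1 (log axis) of each gene in 7 pathway lists, with members filled, other genes open and the median of the plotted values as a line. Ldha is the highest enzyme at 203 TPM, and genes with no count lie at the left edge.

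HIF1 binds DNA at the core RCGTG, which is ACGTG or GCGTG. The 250 bases before the RefSeq start sites of the members (build GRCm38.p6) were searched on both strands for ACGTG only. GCGTG was not counted, so the shares below are not shares of the whole HIF1 core. Every CACGTG, the E-box that MYC proteins bind, contains ACGTG on each strand. Of the 9 members with a RefSeq window, which Slc2a3 lacks, 7 had a match in at least 1 window, or 7 of 12 windows, against 5444 of all 32851 windows (16.6%). Counted by gene, 18.5% of 27025 genes and 26.6% of 6740 protein-coding genes at 1 TPM or more in every library had one. Both Hk1 windows and the Pfkp window had no match. CACGTG was present for Ldha, Slc16a1 and Hif1a, in 3 of 12 windows, against 6.02% of all windows. A match is a description of the letters and not of binding. The 4 windows below are shown because they belong to the highest member, the higher lactate transporter, the lowest member and the factor's own gene, with matches in capitals, read 5′ to 3′ on each gene's strand. None overlaps an exon of the files.
Ldha, chr7:46845554-46845803, plus strand: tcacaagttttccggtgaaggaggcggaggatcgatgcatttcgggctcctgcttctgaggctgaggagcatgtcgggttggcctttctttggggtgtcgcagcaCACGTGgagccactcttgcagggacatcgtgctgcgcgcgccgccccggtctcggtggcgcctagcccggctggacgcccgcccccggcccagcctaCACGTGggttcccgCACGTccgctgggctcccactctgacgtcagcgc
Slc16a1, chr3:104638414-104638663, plus strand: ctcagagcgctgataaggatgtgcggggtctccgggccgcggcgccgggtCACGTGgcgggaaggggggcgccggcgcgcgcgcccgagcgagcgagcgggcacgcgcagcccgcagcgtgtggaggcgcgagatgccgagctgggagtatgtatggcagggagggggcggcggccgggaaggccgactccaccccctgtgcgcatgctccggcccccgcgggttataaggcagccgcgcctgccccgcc
Hk2, chr6:82774455-82774704, minus strand: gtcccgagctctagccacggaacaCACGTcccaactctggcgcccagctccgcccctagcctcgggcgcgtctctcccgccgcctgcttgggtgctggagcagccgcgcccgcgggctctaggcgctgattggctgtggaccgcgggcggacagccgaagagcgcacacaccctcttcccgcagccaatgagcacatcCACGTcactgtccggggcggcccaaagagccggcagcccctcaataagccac
Hif1a, chr12:73907617-73907866, plus strand: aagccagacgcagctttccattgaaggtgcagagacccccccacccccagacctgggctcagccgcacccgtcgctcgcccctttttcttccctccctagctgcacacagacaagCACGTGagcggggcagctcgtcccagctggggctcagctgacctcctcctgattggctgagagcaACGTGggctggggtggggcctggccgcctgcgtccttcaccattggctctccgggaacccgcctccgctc
The Ldha window holds 3 separate stretches, 2 of them E-boxes, and Hk2, the lowest member, holds 2 stretches, and Slc16a1 holds 1. The window before a second Ldha start, chr7:46846832-46847081, had no ACGTG on either strand.

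Genes on the other strand lay opposite an exon of 4 of the 10 members, Slc2a1, Hk1, Pfkp and Hif1a, against 22.1% of all protein-coding genes and 34.7% of those at 1 TPM or more in every library. By whole span 5 members were overlapped, with Hk2 added through Gm17034 in an intron (0, 3 and 0 counts), against 33.9% of all protein-coding genes. Among the 9469 genes of any type with enough counts for the tests of spread below, 5062 were overlapped, so the members do not stand out. The overlaps were small, from 1.84% of exon bases in Hk1 to 5.60% in Hif1a. Values of such genes are uncertain, since reads at shared positions are told apart by strand alone.

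For Hif1a and Slc2a1 the antisense gene held far more counts per base than the member under the strand setting used. Gm15283 (chromosome 12, 73926481 to 73949785, minus strand), which shares 330 bases with exons of Hif1a (73901375 to 73947530, plus strand), had 2442, 3596 and 2856 counts, or 769, 1321 and 1159 TPM. That is 11.2, 36.4 and 30.5 times Hif1a per base in replicates 1, 2 and 3. Gm12868 (chromosome 4, 119133749 to 119138801, minus strand), which shares 105 bases with the exons of Slc2a1 (119108711 to 119137983, plus strand), had 317, 331 and 233 counts, or 347, 423 and 329 TPM. It exceeded Slc2a1 23.8-, 67.9- and 37.0-fold per base, and Gm12867, in an intron of Slc2a1, had 27, 52 and 32 counts. Both Gm15283 and Gm12868 were highest in TPM in replicate 2, where Slc2a1 was lowest, while Hif1a was about level between replicates 2 and 3. For the other 2 members the relation was the reverse. Hk1os, opposite 157 exon bases of Hk1, had 15, 19 and 13 counts, or 0.337, 0.965 and 0.660 times Hk1 per base. The peptidase gene Pitrm1, which meets Pfkp tail to tail over 372 bases, had 318, 120 and 108 counts, or 0.705, 0.468 and 0.310 times Pfkp. The part of these neighbours in the members' counts was not tested, nor was the part of the members' own reads in the neighbours' counts.

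**Figure D4:**
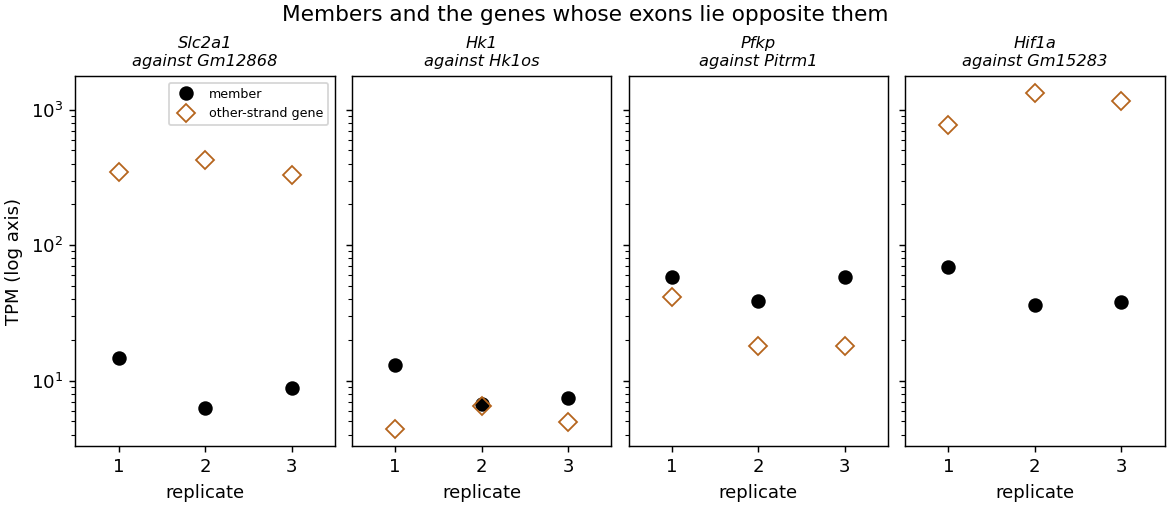
TPM (log axis) of the 4 members with an opposed exon (filled) and of the gene opposite them (open) in replicates 1, 2 and 3. Gm12868 and Gm15283 lie at least 11.2-fold above Slc2a1 and Hif1a in every library, while Hk1os and Pitrm1 lie at or below Hk1 and Pfkp.

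The spread of the members between replicates was set against counting noise and against the dispersion trend of all genes. In an edgeR fit of all 9469 genes with enough counts, 9 of the 10 members were tested and Hk2, with 47 counts in all, was not. Against total counts all 9 lay beyond counting noise in a chi-square test with Benjamini-Hochberg adjustment over all genes, as did 75.2% of genes tested, with adjusted p from 4.67e-91 for Ldha to 0.00149 for Slc2a1. Without replicate 1 the count was 4 of 9. With library sizes scaled by edgeR's TMM method, a choice made after seeing the data, 7 of 9 did, against 59.6% of genes, and Slc2a1 (adjusted p = 0.126) and Hk1 (adjusted p = 0.166) no longer passed. The biological coefficient of variation over all genes was 0.280. None of the 9 members lay beyond the dispersion trend in the edgeR deviance test, where 24 of 9469 genes (0.253%) did. No member had an unadjusted p under 0.05 there. DESeq2's outlier marks, which fell on 0 of 19067 genes, say nothing about the members. The coefficient of variation of TPM ran from 14.6% for Slc16a3 to 52.7% for Slc2a3, with a median of 41.4%.

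Replicate 1 carried the highest TPM of 9 of the 10 members. This was the common pattern of the libraries, as 80% of the 8427 protein-coding genes at 1 TPM or more in every library were highest there too. By CPM over the genes of the edgeR fit, 7 of 9 members were highest in replicate 1, against 62.7% of all genes, 82.7% of those with no other-strand gene over their span and 45.4% of those with one. The 7 were Slc2a3, Slc16a1, Pkm and Ldha, with no such gene over their span, and Slc2a1, Hk1 and Hif1a, which are overlapped. The exceptions by CPM were Slc16a3, not overlapped and highest in replicate 2, and Pfkp, overlapped and highest in replicate 3. By TPM, all 9 T cell markers were highest in replicate 1. So were 3 of 6 Th1 markers. Of 7 macrophage and neutrophil markers 3 had no count, and the 2 highest there were Itgam (2, 1 and 0 counts) and Adgre1 (1, 0 and 0). Of 5 NK and CD8 markers 2 had no count, and Prf1, Cd8b1 and Cd8a (2, 1 and 0 counts) were highest there. Cd79a and Alas2, the only B cell and red cell markers with counts, were not. Markers with so few counts do not set a highest library. The part of this common pattern in the members' levels was not tested.

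By TPM, Slc16a3 was the member that stood outside that pattern. Its TPM in replicate 1 was 0.776 of that in replicate 2 and 0.981 of that in replicate 3, where the other members with no other-strand gene over their span, Slc2a3, Slc16a1, Pkm and Ldha, were 2.19 to 2.69 times and 1.54 to 2.44 times higher in replicate 1. Pfkp was level between replicates 1 and 3 (1.00) and 1.51 times higher in replicate 1 than in replicate 2. In an edgeR fit restricted to the 4407 genes with no other-strand gene over their span, in which 1.27% of genes lay beyond the trend, Slc16a3 had an unadjusted p of 0.0121 and an adjusted p of 0.324, so its departure did not pass. On that scale Slc16a3 was again highest in replicate 2, Pkm was highest in replicate 3, and Slc2a1 and the other overlapped members were not in the fit.

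**Figure D5:**
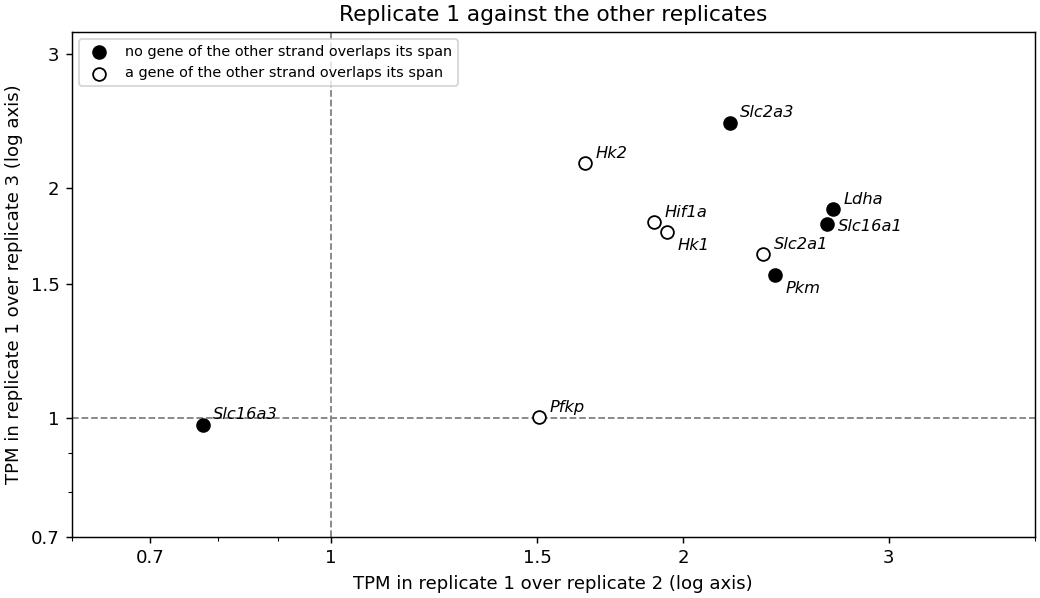
TPM in replicate 1 divided by that in replicate 2 (x) and in replicate 3 (y), both on log axes, for the 10 members, filled where no other-strand gene overlaps the span. Slc16a3 lies at 0.776 and 0.981, below 1 on both axes, and all other members lie to the right of 1.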

How the data were processed

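The authors deposited raw counts of read pairs per gene, 1 table per library. Per the file headers, pairs were counted over exons with featureCounts 1.4.6-p4 on GENCODE vM13 gene models, with both ends aligned and strand setting 1, after an alignment step named star2. The aligner's version is not given in the sources used here, and the labels name mm10. Symbols came from a later GENCODE table and named 50376 of 50600 genes. From the counts, TPM (count per exon base, scaled to the same total in every library), CPM, other-strand overlaps (bedtools 2.31.1), within-library ratios of counts per base and RefSeq promoter matches were computed.

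Spread between replicates was fitted with edgeR 4.0.16 under R 4.3.3 across all genes passing filterByExpr at a minimum count of 10, with TMM scaling and an intercept only. The deviance at the trended dispersion and a chi-square test against total counts were adjusted by Benjamini-Hochberg at 0.05. DESeq2 1.42.0 was an alternative. Both tests were checked on simulated data, where the deviance test missed the smallest changes simulated. Intervals are 95% and cover counting error only.

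The members and the gene lists were chosen with earlier results of these data known. All members were named, and of each list the 3 genes of highest mean TPM, the lowest and those with no count. Some of these are not reported here. No genes of like pattern were sought across 3 libraries.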

Additional observations from a re-analysis of the deposited data

How the results depend on the processing

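No paired analysis was possible because all libraries belong to 1 group. The median over the members, 25.7 TPM, became 68.0 in CPM without length correction, 68.2 with TPM scaled over protein-coding nuclear genes, 125.9 with TPM scaled over genes no other-strand gene overlaps, and 44.5 without the 100 genes of highest TPM, the last chosen after seeing the data. The TPM scalings multiply every gene of a library alike. The count of members beyond counting noise, 9, was 4 among genes no other-strand gene overlaps, where only 5 members were tested, and 4 to 9 when each replicate was left out, lowest without replicate 1. The count of members with an opposed exon, 4, was 0 at a minimum of 10 percent of exon bases. Over all genes the edgeR trend test called 24 of 9469, 44 of 19067 without the filter, 56 of 4407 among genes no other-strand gene overlaps, 21 without replicate 1, 3 without replicate 2 and 8 without replicate 3. No ratio changed sign in its mean under any alternative run. The alternative with pairs free of opposed exons left 2 of 8 pairs, whose ratios are those given. Depth limits Hk2 most, with 47 counts.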

Other observations

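Some isozymes best known from other tissues were counted in every library. These genes, other than Slc2a12, were chosen after their values were seen. Pgam2, the muscle phosphoglycerate mutase, had 50, 65 and 41 counts, or 32.4 ± 7.71 TPM (SD, n = 3), beside 25.3 ± 8.35 for Pgam1, the common form. The ranges of the pair overlap, since Pgam1 was the higher in replicate 1 (34.9 against 27.2 TPM), and Pgam2 had fewer counts in all (156 against 274). Eno3, the muscle enolase, had 19, 26 and 13 counts, or 5.79 ± 1.91 TPM, against 8.97 ± 5.28 for Eno1, the common form. Slc16a8, a monocarboxylate transporter best known from the retinal pigment epithelium, had 29, 33 and 21 counts, or 7.98 ± 1.55 TPM. Pgam2, Eno3 and Slc16a8 were highest in replicate 2, as was Slc16a3, and Slc2a12 in replicate 3. A gene of the other strand overlaps the span of Slc16a8 (Pick1) and Slc2a12 (Tbpl1) and lies 678 bases from Pgam2 (Dbnl) and 709 bases from Eno3 (Gm12319). Other listed genes not highest in replicate 1 had no such neighbour nearby. Eno2, another enolase gene, was highest in replicate 2 (17, 29 and 16 counts), and its nearest other-strand gene lies 22013 bases away. Ldhb, Epas1 and Pgls were highest in replicate 3, with theirs 70519, 50500 and 23325 bases away.

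Over the 59 listed genes at 1 TPM or more in every library, 47 were highest in replicate 1. Of the 34 with an other-strand gene over their span or within 2000 bases 26 were, or 76.5%, and of the 25 others 21, or 84%. The difference between these shares was not tested.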
